A study of Mus musculus with 10 samples.

Results

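The transcripts of 9 receptor genes of natural killer (NK) cells, *Ncr1*, *Klrb1c*, *Klrb1f*, *Klrk1*, *Klrd1*, *Klrc1*, *Klrc2*, *Klre1* and *Klrg1*, were followed in bulk melanomas. The cancer cells of these tumors had or lacked cyclooxygenase (COX), an enzyme of prostaglandin synthesis. The genes were chosen by name, for the receptors they encode, from the 45706 genes in the count table, and all 9 were among the 14550 genes that could be tested. Tumors of *Braf*V600E-driven melanoma cells were taken from C57BL/6 mice, 8 weeks old, 4 days after subcutaneous implantation. *Ptgs*+/+ tumors (n = 4) came from COX-competent cells and *Ptgs*-/- tumors (n = 3) from cells lacking *Ptgs1* and *Ptgs2*, which encode COX-1 and COX-2, both in untreated mice. The last 3 tumors, again *Ptgs*-/-, grew in hosts depleted of NK cells, which according to the labels had received 200 µg of the anti-NK1.1 antibody PK136 and 30 µg of anti-asialo GM1 antibody on days 0 and 2 (the study's methods describe another schedule). The labels name no control antibody for the untreated mice. Among the libraries used here, NK cell depletion is present in *Ptgs*-/- tumors alone. The knockout was made by CRISPR/Cas9 in the melanoma line, not in the hosts.

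NK cells carry germline-encoded receptors whose activating and inhibitory signals together set whether a target cell is killed. NKp46, the product of *Ncr1*, is an immunoglobulin-like activating receptor that marks NK cells across mouse strains. The other 8 genes encode C-type lectin-like receptors: NK1.1 (*Klrb1c*) and NKR-P1F (*Klrb1f*) of the NKR-P1 family, NKG2D (*Klrk1*), CD94 (*Klrd1*) with its partners NKG2A (*Klrc1*, inhibitory) and NKG2C (*Klrc2*, activating), KLRE1 (*Klre1*) and the inhibitory receptor KLRG1 (*Klrg1*). NK1.1 is itself the antigen that the depleting antibody binds in C57BL/6 mice.

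Libraries held 8150556 to 12839174 counts, so that 3 counts, taken as the floor of detection, corresponded to 0.234 to 0.368 CPM, a gene's count scaled by the total of its library. Libraries were made from the 3′ ends of transcripts, which gives about 1 tag per transcript, and levels of different genes are therefore compared as CPM without division by length. Of the targeted genes, *Ptgs2* ran from 94.4 to 347 CPM in *Ptgs*+/+ tumors and from 27.0 to 74.8 in the 6 knockout tumors, and *Ptgs1* from 128 to 170 against 77.0 to 105. Neither overlapped, although a 3′ tag need not report an edit in the coding part. *Ptgs*+/+ replicate 4 and *Ptgs*-/- replicate 3 carried a different label code (EB042) from the other 8 libraries (EB046), whose meaning the labels do not give. Nothing in the labels ties a library to a named animal, so p-values measure the spread between these libraries.

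All lectin-like receptor genes studied lie on mouse chromosome 6 (GRCm38), and 7 of the 8 lie within 900.5 kb, in the NK gene complex. *Klre1*, *Klrd1*, *Klrk1*, *Klrc2* and *Klrc1* (ENSMUSG00000050241, ENSMUSG00000030165, ENSMUSG00000030149, ENSMUSG00000052736 and ENSMUSG00000030167) follow one another in 101 kb, chr6:129577905-129678973. *Klrb1c* (ENSMUSG00000030325, chr6:128778485-128789215, minus strand) and *Klrb1f* (ENSMUSG00000030154, chr6:129045901-129057464, plus strand) lie at smaller coordinates, and *Klrg1* (ENSMUSG00000030114, chr6:122270596-122282882, minus strand) stands 6496 kb away from them. *Ncr1* (ENSMUSG00000062524, chr7:4337724-4345164, plus strand) is on another chromosome. Some 3′ ends are shared with relatives, which limits how surely a tag can be placed. Of the 50-base stretches in the last 500 bases of its transcripts, *Klrc1* shared 43.5% with *Klrc2* or *Klrc3*, *Klrb1c* 17.8% with other *Klrb1* genes or an overlapping gene model, and *Klrc2* 15.2% with *Klrc1* or *Klrc3*. The other 6 genes shared none.

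Because most of these genes moved together, their promoters were read for letters they hold in common. RefSeq windows of 300 bases (250 before and 50 after the start of transcription, GRCm38.p6) were at hand for 7 of the 9 genes (10 windows, some genes having more than 1 start), with *Klrd1* and *Klrg1* not among them. RUNX factors, which NK cells need for their development, recognize the core TGTGGT, and the search for each motif covered both strands (ACCACA on the other). This core was found in the windows of 6 of the 7 genes, *Ncr1*, *Klrb1c*, *Klrk1*, *Klrc1*, *Klrc2* and *Klre1*. These were 8 of the 10 windows, against 16.8% of all 32851 windows of that length. The longer TGTGGTT was in 3 of the 7 genes (*Ncr1*, *Klrk1* and *Klre1*) and 4 of the 10 windows, against 5.27% of all windows. Of the other 7-letter cores read, the T-box core AGGTGTG was in none of these genes, against 5.84% of all windows. The ETS core AGGAAGT was in 1 gene, *Klrb1f*, against 9.35%. The 6-letter cores were chosen after the sequences had been seen, and no match was tested for binding. Windows of the same gene overlap, and no difference from the share over all windows was tested. T-box factors such as T-bet and Eomes recognize GGTGTG, which was in the window of 1 gene, *Klrb1f*, against 19.0% of all windows, and the ETS core AGGAAG was in 3 genes (*Klrb1c*, *Klrb1f* and *Klre1*), against 35.4%. The windows of 5 genes are printed 5′ to 3′ on the strand of the gene, to show where the matches lie, with RUNX cores of either strand in capitals. They are those of *Ncr1* (chr7:4337465-4337764, plus), *Klrk1* (chr6:129623815-129624114, minus), *Klrc1* (chr6:129678924-129679223, minus), *Klrb1c* (chr6:128788592-128788891, minus) and *Klrb1f* (chr6:129045651-129045950, plus), the one gene of the 7 without a core.
Ncr1: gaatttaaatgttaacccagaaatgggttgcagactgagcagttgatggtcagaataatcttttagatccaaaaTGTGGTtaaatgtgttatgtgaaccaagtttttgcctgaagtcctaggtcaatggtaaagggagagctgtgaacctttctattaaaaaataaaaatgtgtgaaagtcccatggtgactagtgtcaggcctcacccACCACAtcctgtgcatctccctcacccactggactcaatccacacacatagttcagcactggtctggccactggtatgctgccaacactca
Klrk1: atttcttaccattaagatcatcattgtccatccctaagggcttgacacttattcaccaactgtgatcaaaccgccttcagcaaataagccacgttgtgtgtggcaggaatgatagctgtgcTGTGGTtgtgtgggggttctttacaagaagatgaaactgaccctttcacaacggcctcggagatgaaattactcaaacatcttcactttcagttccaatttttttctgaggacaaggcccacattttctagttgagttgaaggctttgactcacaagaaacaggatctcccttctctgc
Klrc1: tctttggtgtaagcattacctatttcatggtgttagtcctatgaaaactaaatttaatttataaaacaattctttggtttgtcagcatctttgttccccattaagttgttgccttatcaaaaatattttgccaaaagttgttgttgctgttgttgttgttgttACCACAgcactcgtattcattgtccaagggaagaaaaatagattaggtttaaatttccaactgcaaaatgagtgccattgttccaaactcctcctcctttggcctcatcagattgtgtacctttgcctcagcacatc
Klrb1c: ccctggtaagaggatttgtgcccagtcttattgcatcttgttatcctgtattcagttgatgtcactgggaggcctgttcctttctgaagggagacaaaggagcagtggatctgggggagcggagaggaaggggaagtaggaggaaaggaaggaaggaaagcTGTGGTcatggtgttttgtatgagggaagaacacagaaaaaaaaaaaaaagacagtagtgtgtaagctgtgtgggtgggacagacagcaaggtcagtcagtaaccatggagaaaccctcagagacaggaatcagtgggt
Klrb1f: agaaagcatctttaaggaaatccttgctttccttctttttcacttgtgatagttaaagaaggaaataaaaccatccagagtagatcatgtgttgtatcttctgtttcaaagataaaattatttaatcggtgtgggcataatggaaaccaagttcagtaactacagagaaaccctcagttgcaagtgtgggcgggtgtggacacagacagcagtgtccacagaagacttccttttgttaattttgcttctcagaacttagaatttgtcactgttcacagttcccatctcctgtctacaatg
In *Ncr1* the cores began 176 and 41 bases upstream of the start, in *Klrk1* 129, in *Klrb1c* 89 and in *Klrc1* 87 bases upstream.

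Loss of COX in the cancer cells went with higher levels of nearly the whole receptor set. Summed over the 9 genes, the receptors came to 25.3 ± 7.52 CPM (SD, n = 4) with COX, to 105.1 ± 39.0 (SD, n = 3) without it, and to 12.7 ± 2.31 (SD, n = 3) without COX and without NK cells. The sums did not overlap between groups: they ran from 19.3 to 35.2, from 68.8 to 146.4 and from 10.7 to 15.2 CPM. In whole tumors, more NK cells and more RNA per NK cell cannot be told apart. The question of the first comparison was what the absence of COX in cancer cells changed. A gene was called when edgeR's quasi-likelihood test gave an adjusted p (FDR) of no more than 0.05 and the log2 difference was no smaller than 1.5. By this rule *Ptgs*-/- tumors had more of 8 of the 9 genes than *Ptgs*+/+ tumors, where 3.14% of all genes tested were. Every gene of the 9 was higher in all 3 *Ptgs*-/- tumors than in all 4 *Ptgs*+/+ tumors, against 18.1% of all genes tested. The median log2 fold change of the 9 was 2.29, against -0.01 over all genes. *Ncr1*, *Klrb1f* and *Klre1* were so low elsewhere that they passed the filter on low counts through the *Ptgs*-/- tumors, and 5 of the other 6 were called. With the 8 libraries of label code EB046 alone, the number called was again 8. The second code held 1 tumor of each of these groups and allows no comparison of its own.

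NK cell depletion was compared within *Ptgs*-/- tumors. Here too 8 of the 9 genes were higher in NK cell-competent mice by the same rule, against 0.323% of all genes tested, and the gene not called was *Klrg1* instead of *Klrd1*. *Ncr1*, *Klrb1f* and *Klre1* again passed the filter through the NK cell-competent *Ptgs*-/- tumors, where they were high, and 5 of the other 6 were called. The same 8 genes did not overlap between the groups, against 10.4% of all genes. The median log2 fold change was 4.31, against -0.01 over all genes, and it was 4.01 with *Ncr1*, at 0 in the depleted tumors, set to its lower bound. Among EB046 libraries alone 5 genes were called (*Ncr1*, *Klrb1c*, *Klrc1*, *Klrc2* and *Klrk1*). Since the *Ptgs*-/- tumors of NK cell-competent mice enter both comparisons, the 2 sets of calls are not independent of each other.

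**Figure D1:**
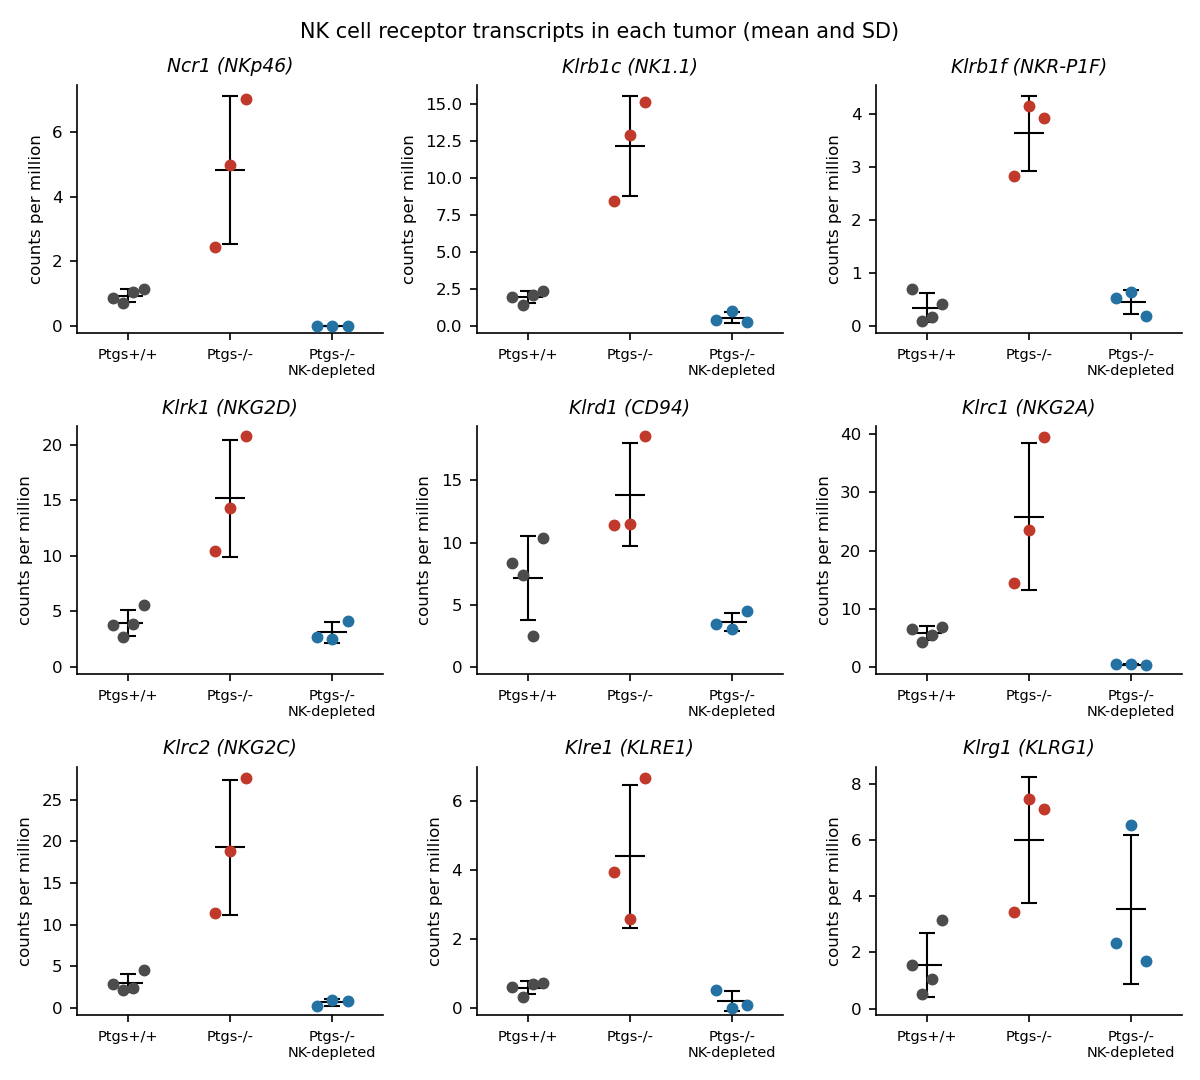
Level of each of the 9 receptor genes in CPM (y axis, a separate linear scale for each gene) in *Ptgs*+/+ tumors (grey, n = 4), *Ptgs*-/- tumors (red, n = 3) and *Ptgs*-/- tumors of depleted mice (blue, n = 3). Points are tumors, and the bars give the mean and SD. For every gene the red points lie above all grey points, and for all but *Klrg1* above all blue points.

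*Ncr1* was the one gene of the set with no count left after depletion. It stood at 0.857, 0.722, 1.05 and 1.15 CPM in the *Ptgs*+/+ tumors, at 2.45, 4.97 and 7.02 CPM in the *Ptgs*-/- tumors and at 0 in each of the 3 tumors of NK cell-depleted mice. The 3 groups were fully apart. Relative to *Ptgs*+/+ tumors, *Ptgs*-/- tumors were higher by 2.29 on the log2 scale (SE 0.38, FDR = 0.00272). Given the floor of 3 counts per library, *Ptgs*-/- tumors held at least 16.1-fold more *Ncr1* in NK cell-competent than in depleted mice (FDR = 0.00154), and *Ptgs*+/+ tumors at least 3.17-fold more than the depleted ones (FDR = 0.00404).

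*Klrb1c*, the gene of the NK1.1 antigen, also separated all 3 groups. Its levels were 1.95, 1.44, 2.11 and 2.41 CPM in *Ptgs*+/+ tumors, 8.47, 12.9 and 15.1 CPM in *Ptgs*-/- tumors, and 0.428, 1.01 and 0.298 CPM in NK cell-depleted mice. No tumor of one group reached the range of another. *Ptgs*-/- tumors were above *Ptgs*+/+ tumors by 2.56 (log2, SE 0.30, FDR = 0.000246) and above those of NK cell-depleted mice by 4.31 (SE 0.39, FDR = 0.000569), and 4.76% of the mean level was left after depletion. The depleted tumors also lay below the *Ptgs*+/+ tumors, by -1.75 (SE 0.41, FDR = 0.0159).

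*Klrb1f*, which encodes a receptor of the NKR-P1 family whose ligands are Clr proteins, was the lowest of the 9 genes in COX-competent tumors. With 9, 1, 2 and 4 counts in the *Ptgs*+/+ libraries (0.701, 0.103, 0.176 and 0.418 CPM) it was at or under the floor in 2 of the 4. *Ptgs*-/- tumors held 2.82, 4.14 and 3.92 CPM, and those of NK cell-depleted mice 0.535, 0.646 and 0.199 CPM. Its fitted difference between *Ptgs*-/- and *Ptgs*+/+ tumors was 3.23 (log2, SE 0.46, FDR = 0.000763), a size that rests on these few *Ptgs*+/+ counts. Its difference from NK cell-depleted mice was 2.92 (SE 0.50, FDR = 0.0120), and this call was lost among EB046 libraries alone (FDR = 0.0853) and without *Ptgs*-/- replicate 2, *Ptgs*-/- replicate 3 or NK cell-depleted replicate 3 (FDR = 0.0602, 0.0512 and 0.0701). Unlike *Klrb1c*, it overlapped between depleted *Ptgs*-/- and *Ptgs*+/+ tumors, with a log2 difference of 0.31 (SE 0.61, FDR = 0.798).

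The inhibitory *Klrc1* (NKG2A) was the most abundant of the 9 transcripts in *Ptgs*-/- tumors and was nearly absent in NK cell-depleted mice. It measured 6.62, 4.23, 5.44 and 6.80 CPM in *Ptgs*+/+ tumors, 14.5, 23.5 and 39.5 CPM in *Ptgs*-/- tumors, and 0.535, 0.461 and 0.298 CPM after depletion. All 3 groups were apart. The differences were 2.10 between *Ptgs*-/- and *Ptgs*+/+ tumors (log2, SE 0.29, FDR = 0.000605), 5.84 between NK cell-competent and depleted mice (SE 0.44, FDR = 0.000174) and -3.74 between depleted and *Ptgs*+/+ tumors (SE 0.45, FDR = 0.000303). After depletion 1.67% of its level in *Ptgs*-/- tumors was left, the smallest share among the 8 genes of the set that still had counts.

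Its activating counterpart *Klrc2* (NKG2C), which shares the partner CD94, followed the same course. *Ptgs*+/+ tumors held 2.88, 2.16, 2.46 and 4.6 CPM, *Ptgs*-/- tumors 11.4, 18.8 and 27.6 CPM, and NK cell-depleted mice 0.214, 1.01 and 0.894 CPM, again without overlap. *Klrc2* was higher in *Ptgs*-/- than in *Ptgs*+/+ tumors by 2.62 (log2, SE 0.35, FDR = 0.000546) and than after depletion by 4.69 (SE 0.47, FDR = 0.000971), and depleted tumors lay below *Ptgs*+/+ tumors by -2.07 (SE 0.48, FDR = 0.0162). Counts of *Klrc1* were 1.48 to 2.30 times those of *Klrc2* in the 4 *Ptgs*+/+ tumors and 1.25 to 1.43 times in the 3 *Ptgs*-/- tumors. These ratios did not overlap, and since the 2 genes share part of their 3′ ends they carry that uncertainty.

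*Klrd1*, which encodes the CD94 chain that NKG2A and NKG2C need to reach the surface, had smaller log2 differences than either partner, a contrast between genes that was not tested. Its levels were 8.33, 7.42, 2.46 and 10.4 CPM in *Ptgs*+/+ tumors, 11.4, 11.5 and 18.6 CPM in *Ptgs*-/- tumors and 3.42, 3.04 and 4.47 CPM in NK cell-depleted mice. The lowest *Ptgs*+/+ tumor, replicate 3, lay below all 3 depleted ones, and the other *Ptgs*+/+ tumors lay above them. Between *Ptgs*-/- and *Ptgs*+/+ tumors the log2 difference was 0.90 (SE 0.36, FDR = 0.0933), and *Klrd1* was the one gene of the 9 not called there. The difference from NK cell-depleted mice was 1.90 (SE 0.41, FDR = 0.0479) and lies at the edge of the rule: 7 of 19 alternative settings called it, and the FDR rose to 0.229 without NK cell-depleted replicate 2. After depletion 26.4% of the level was left.

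*Klrk1*, the gene of NKG2D, which binds stress-induced ligands on tumor cells, was higher in *Ptgs*-/- tumors than in both other groups. It stood at 3.82, 2.68, 3.86 and 5.55 CPM in *Ptgs*+/+ tumors, at 10.4, 14.3 and 20.8 CPM in *Ptgs*-/- tumors and at 2.68, 2.49 and 4.17 CPM in NK cell-depleted mice. Its log2 differences were 1.88 (SE 0.28, FDR = 0.000867) and 2.26 (SE 0.31, FDR = 0.00360) for *Ptgs*-/- tumors against the other groups in that order. Depleted and *Ptgs*+/+ tumors overlapped, with a difference of -0.38 (SE 0.31, FDR = 0.479). NKG2D is also carried by activated CD8+ T cells, and 20.5% of its level was left after depletion.

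*Klre1*, whose product pairs with KLRI1 or KLRI2, was low throughout, with 3 to 8 counts in the COX-competent tumors (8, 3, 8 and 7). COX loss brought 32, 25 and 73 counts, and depletion left 5, 0 and 1. *Ptgs*-/- tumors were apart from both other groups, which overlapped. The means were 0.592 ± 0.194 CPM (SD, n = 4) for *Ptgs*+/+ tumors, 4.39 ± 2.07 (SD, n = 3) for *Ptgs*-/- tumors and 0.211 ± 0.285 (SD, n = 3) with depletion. *Ptgs*-/- tumors were higher than *Ptgs*+/+ tumors by 2.80 (log2, SE 0.50, FDR = 0.00264) and than depleted ones by 4.35 (SE 0.67, FDR = 0.00636, and 0.0584 among EB046 libraries alone).

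*Klrg1* was the one gene of the 9 not called under depletion. KLRG1 is an inhibitory receptor of mature NK cells that is shared with effector and regulatory T cells and with group 2 innate lymphoid cells (ILC2). It measured 1.56, 0.515, 1.05 and 3.14 CPM in *Ptgs*+/+ tumors, 3.44, 7.45 and 7.11 CPM in *Ptgs*-/- tumors and 2.35, 6.55 and 1.69 CPM in NK cell-depleted mice. NK cell-depleted replicate 2 lay within the range of the NK cell-competent tumors, and the other 2 did not. The difference between *Ptgs*-/- and *Ptgs*+/+ tumors was 1.90 (log2, SE 0.55, FDR = 0.0285), and it missed the threshold without any one of *Ptgs*+/+ replicates 1, 2 and 3 or *Ptgs*-/- replicates 2 and 3 (FDR 0.0526 to 0.102, the highest without *Ptgs*-/- replicate 2). Depletion left 58.9% of its mean level, a log2 difference of 0.73 (SE 0.56, FDR = 0.689). The summed level of 6 ILC2 markers was 518 to 695 CPM in *Ptgs*+/+ tumors, 122 to 212 in *Ptgs*-/- tumors and 176 to 193 after depletion, nearly all of it from *Il1rl1*, *Rora* and *Gata3*, while *Il5* had 0 counts in 8 of 10 libraries and *Il13* at most 7. The part of other cells in the *Klrg1* level was not tested.

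**Figure D2:**
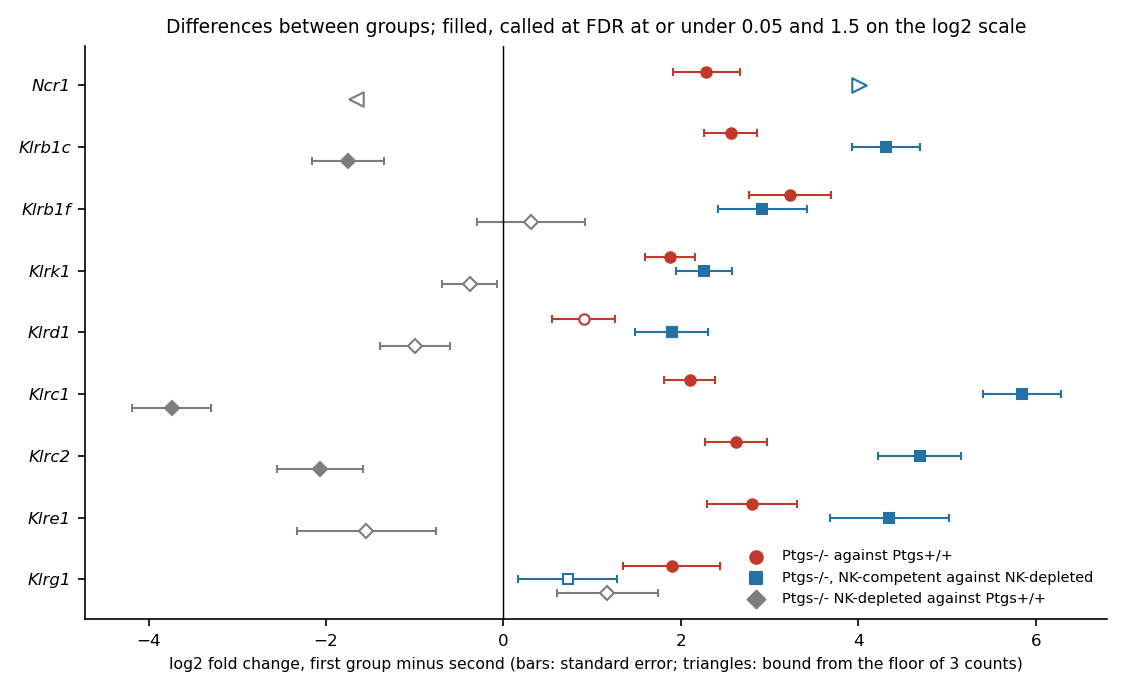
Log2 fold change of each receptor gene (x axis, first group minus second) with its standard error, for *Ptgs*-/- against *Ptgs*+/+ tumors (red circles), *Ptgs*-/- tumors of NK cell-competent against depleted mice (blue squares) and depleted *Ptgs*-/- against *Ptgs*+/+ tumors (grey diamonds). Filled symbols met the rule of FDR and fold, and triangles give the bound from the floor of 3 counts for *Ncr1*, which was called in all 3 comparisons. *Klrd1* is the open red circle at 0.90 and *Klrg1* the open blue square at 0.73.

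In the third comparison, *Ptgs*-/- tumors of NK cell-depleted mice were set against *Ptgs*+/+ tumors of untreated mice. *Ncr1*, *Klrb1c*, *Klrc1* and *Klrc2* were lower by the rule, 4 of the 9 genes, against 0.701% of all genes tested, and the same 4 did not overlap, against 12% of all genes. Without NK cell-depleted replicate 1, or without replicate 3, the number was 2, since *Klrb1c* (FDR = 0.0687 and 0.0759) and *Klrc2* (FDR = 0.0592 and 0.0550) then missed the threshold. *Klrb1f*, *Klrd1*, *Klrk1*, *Klre1* and *Klrg1* were not called, with log2 differences of 0.31, -0.99, -0.38, -1.55 and 1.17 and FDR from 0.130 to 0.798. When only these 2 groups were fitted, *Ncr1*, *Klrb1f* and *Klre1* fell under the filter on low counts, and 3 of the remaining 6 were called. This comparison shares its tumors with the other 2.

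**Figure D3:**
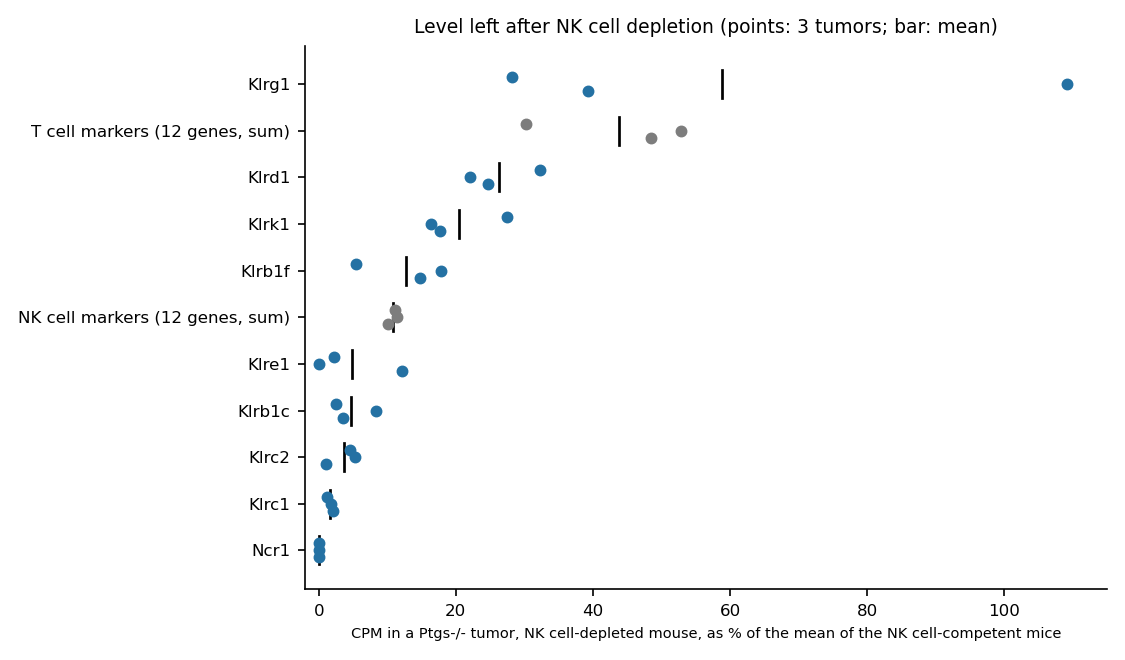
CPM in each of the 3 *Ptgs*-/- tumors of NK cell-depleted mice as a percentage of the mean CPM of the 3 *Ptgs*-/- tumors of NK cell-competent mice (x axis, linear), for the 9 receptor genes (blue) and for the summed levels of NK cell and T cell marker lists of 12 genes each (grey). Points are tumors and bars are means. *Ncr1* is at 0 and *Klrc1* at 1.67%, whereas *Klrk1* is at 20.5%, *Klrd1* at 26.4% and *Klrg1* at 58.9%, with 1 *Klrg1* point at 109%.

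The genes therefore differed in what depletion left, although the order at the low end is not resolved. In the depleted libraries the floor of 3 counts was 0.299 CPM on average. These libraries held 5, 5 and 3 counts of *Klrc1*, 5, 0 and 1 of *Klre1* and 5, 7 and 2 of *Klrb1f*. For *Ncr1* the loss is known only as a bound, at least 16.1-fold. *Ncr1*, *Klrc1*, *Klrc2*, *Klrb1c* and *Klre1* kept 0 to 4.82% of their mean level, *Klrb1f* 12.7%, and *Klrk1*, *Klrd1* and *Klrg1* 20.5 to 58.9%. A list of 12 other NK cell markers, among them *Gzma*, *Eomes*, *Nkg7* and *Il2rb*, kept 10.9% of its summed CPM, which ran from 24.0 to 59.3 in *Ptgs*+/+ tumors, from 123 to 259 in *Ptgs*-/- tumors and from 18.0 to 20.2 after depletion. *Gzma* (49.1 CPM) and *Il2rb* (49.9 CPM) had the highest means of this list in *Ptgs*-/- tumors and so weigh most in the sum. Single genes of the list ranged widely in what depletion left, up to 51.3% for *Itga2* and 59.4% for *Cd244a*. *Prf1*, the perforin gene, was at 0 in all 3 depleted libraries. A list of 12 T cell markers kept 43.8% and ran from 9.57 to 13, from 31.2 to 81.7 and from 18.6 to 32.5 CPM in the same groups, with *Cd3d* at 2.19 to 3.69 and *Trac* at 2.89 to 3.77 CPM in the depleted tumors. Of the T cell markers, 10 of 11 tested rose in *Ptgs*-/- against *Ptgs*+/+ tumors (3.14% of all genes), 1 (*Trbc1*) was higher in NK cell-competent than in depleted mice (0.323% of all genes), and 3 (*Cd8a*, *Trac* and *Cd5*) were higher in depleted *Ptgs*-/- than in *Ptgs*+/+ tumors, as 2.01% of all genes were. Of the NK cell markers, 8 of 11 tested rose with COX loss, and 9 were higher in NK cell-competent than in depleted mice. The shares over all genes were again 3.14% and 0.323%. Some markers were low outside the *Ptgs*-/- tumors of NK cell-competent mice. *Xcl1* had means of 12.2 CPM there, 0.751 in *Ptgs*+/+ and 0.526 in depleted tumors, and *Cd8a* 1.61, 0.274 and 0.970. Such genes pass the filter on low counts through the tumors where they are high. The marker counts were not repeated without them. The part of T cells in what remained of *Klrk1*, *Klrd1* and *Klrg1* was not tested.

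The make-up of the receptor counts was then compared within each tumor, as a share of the summed counts of the 9 genes, which does not depend on depth or scaling. These sums were 190 to 351 counts in *Ptgs*+/+ tumors, 561 to 1605 in *Ptgs*-/- tumors and 100 to 165 after depletion, and they limit the precision of a single share, since in a library of 100 counts a share of 5% has an exact 95% binomial interval of 1.64 to 11.3% (counting error only). For several genes the mean shares of *Ptgs*+/+ and *Ptgs*-/- tumors differed by less than the spread between tumors. *Klrc1* made up 23.3 ± 3.80% (SD, n = 4) and 23.8 ± 2.99% (SD, n = 3), *Klrk1* 15.9 ± 2.91% and 14.5 ± 0.532%, and *Ncr1* 3.89 ± 1.07% and 4.44 ± 0.762%. *Klrc2* and *Klrb1f* took a larger share in all *Ptgs*-/- tumors than in any *Ptgs*+/+ tumor. *Klrc2* stood at 11.9 ± 1.25% in *Ptgs*+/+ and 18.1 ± 1.31% in *Ptgs*-/- tumors and *Klrb1f* at 1.3 ± 0.887% and 3.64 ± 0.830%, each with p = 0.0571 (two-sided exact permutation test, the smallest p that 3 against 4 tumors allow) and 0.162 after Benjamini-Hochberg adjustment over 27 tests. *Klrd1* made up 27.6 ± 10.6% of the counts in *Ptgs*+/+ tumors and 13.6 ± 2.67% in *Ptgs*-/- tumors, with overlap (p = 0.114, exact permutation test, adjusted p = 0.162).

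**Figure D4:**
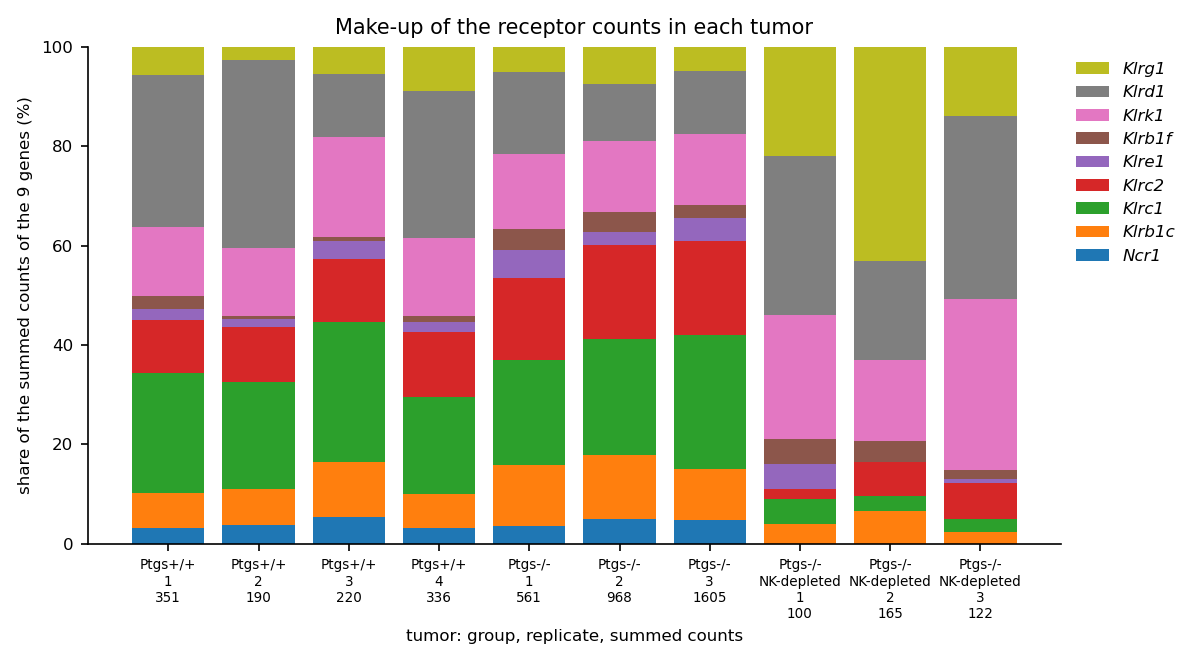
Share of each receptor gene in the summed counts of the 9 genes (y axis, %) in each of the 10 tumors, with the group, the replicate number and the summed counts under each bar. Colors mark genes. *Klrc1* is the widest band in each *Ptgs*-/- tumor, and in NK cell-depleted mice *Klrg1*, *Klrd1* and *Klrk1* fill most of the bar while *Ncr1* is absent.

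After depletion no difference in share passed the test, and since shares sum to a whole, a lower share of some genes raises that of the others. *Klrc1* stood at 3.50 ± 1.33% (SD, n = 3) of the receptor counts, *Klrc2* at 5.35 ± 2.92% and *Klrb1c* at 4.38 ± 2.13%, below their shares in NK cell-competent mice. *Klrg1* stood at 26.3 ± 15.0%, against 5.76 ± 1.45% in those mice. *Klrd1* stood at 29.6 ± 8.69% and *Klrk1* at 25.3 ± 9.03%. *Ncr1*, *Klrb1c*, *Klrc1*, *Klrc2*, *Klrd1*, *Klrk1* and *Klrg1* did not overlap between NK cell-competent and depleted mice, each with the smallest p that 3 against 3 tumors allow (p = 0.1, two-sided exact permutation test, adjusted p = 0.162). The share of *Klrb1f* was 3.64% in NK cell-competent and 3.63% in depleted mice (p = 1, exact permutation test). With these group sizes none of the differences in share could pass 0.05.

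The order of the 9 levels changed with the group. In *Ptgs*+/+ tumors it ran *Klrd1*, *Klrc1*, *Klrk1*, *Klrc2*, *Klrb1c*, *Klrg1*, *Ncr1*, *Klre1* and *Klrb1f*, from 7.14 to 0.350 CPM, with every neighbor overlapping the next. *Ptgs*-/- tumors had *Klrc1* on top (25.8 ± 12.7 CPM, SD, n = 3), then *Klrc2*, *Klrk1*, *Klrd1* and *Klrb1c*, and the 1 step without overlap lay between *Klrb1c* (12.2 ± 3.40) and *Klrg1* (6.00 ± 2.23), followed by *Ncr1*, *Klre1* and *Klrb1f*. In depleted mice *Klrd1* (3.65 ± 0.738), *Klrg1* and *Klrk1* (3.11 ± 0.922) stood above the other 6, with no overlap between *Klrk1* and *Klrc2* (0.708 ± 0.432).

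Receptors of this kind signal through adaptors that pair with their transmembrane segments. DAP10 (*Hcst*) serves NKG2D, DAP12 (*Tyrobp*) serves NKG2C and, in activated mouse NK cells, NKG2D, while NKp46 uses the Fc receptor γ chain (*Fcer1g*) and CD3ζ (*Cd247*). By FDR alone all 4 adaptor genes exceeded their *Ptgs*+/+ level in *Ptgs*-/- tumors (12.1% of all genes did). Of these *Cd247* alone also met the fold (log2 2.22, SE 0.47, FDR = 0.00628), as 3.14% of all genes did. *Hcst* stood at 10.4 ± 1.22 CPM (SD, n = 4) in *Ptgs*+/+ tumors, at 27.0 ± 7.11 (SD, n = 3) in *Ptgs*-/- tumors and at 15.0 ± 1.19 (SD, n = 3) after depletion. *Tyrobp* stood at 112 ± 5.83, 174 ± 32.4 and 134 ± 3.78 CPM in the same order. These adaptors are shared with macrophages and other myeloid cells. None of the 4 was called between NK cell-competent and depleted mice (FDR 0.0732 to 0.338), where 1.15% of all genes were called in either direction.

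Among other signaling genes, 4 of 13 tested were called higher in *Ptgs*-/- than in *Ptgs*+/+ tumors, where 3.14% of all genes were. These were the kinases *Lck* (log2 2.36, SE 0.30) and *Zap70* (2.05, SE 0.43), the scaffold *Lat* (2.39, SE 0.39) and *Sh2d1b1* (1.64, SE 0.24), which encodes the SAP-related adaptor EAT-2. Their FDR ran from 0.000380 to 0.00562. By FDR alone 11 of the 13 were higher, against 12.1% of all genes. Under depletion 1 of the 13, *Lck*, was called, against 0.323% of all genes (log2 2.13, SE 0.32, FDR = 0.00599). It stood at 18.8 ± 9.48 CPM (SD, n = 3) in NK cell-competent and 4.22 ± 0.562 (SD, n = 3) in depleted mice. Between depleted *Ptgs*-/- and *Ptgs*+/+ tumors none of the 13 was called, where 2.71% of all genes were in either direction. By FDR alone *Lat*, *Sh2d1b1*, *Fyn* and *Ptpn6* were higher in the depleted tumors (log2 1.42, 0.92, 0.55 and 0.64, FDR 0.0148 to 0.0412). Of all 14550 genes, 1818 passed this FDR in either direction. *Lck*, *Zap70*, *Lat* and *Cd247* serve T cells as well as NK cells.

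Of 18 genes listed for ligands of these receptors, 7 could be tested in the bulk RNA, and none was called in any comparison. Over all genes, 4.15%, 1.15% and 2.71% were called in either direction in the 3 comparisons in the order given. With 7 genes, the lack of a call is near these shares and says little about the ligands on target cells. *H2-T23*, which encodes the Qa-1 molecule bound by CD94/NKG2A and CD94/NKG2C, stood at 1.37 ± 1.41 CPM (SD, n = 4) in *Ptgs*+/+ tumors, at 2.63 ± 1.33 (SD, n = 3) in *Ptgs*-/- tumors and at 2.76 ± 1.0 (SD, n = 3) in depleted ones. For NKG2D, *Raet1e* was at 2.34 ± 0.803, 3.53 ± 1.11 and 4.79 ± 1.41 CPM, and *Ulbp1*, *Raet1d*, *H60b* and *H60c* had at most 9 counts in any library. For the NKR-P1 receptors, *Clec2i*, a gene of the Clr family, passed the FDR but not the fold between *Ptgs*-/- and *Ptgs*+/+ tumors (log2 1.23, SE 0.34, FDR = 0.0228), and *Clec2d*, the Clr-b gene, had a difference of 0.92 (SE 0.32, FDR = 0.0585). KLRG1 binds cadherins. *Cdh1*, E-cadherin, measured 77.4 ± 35.5 CPM in *Ptgs*+/+ tumors, 30.4 ± 23.8 in *Ptgs*-/- tumors and 57.9 ± 9.34 after depletion, with overlap between all groups, and *Cdh2*, N-cadherin, 47.9 ± 3.01, 40.0 ± 8.74 and 41.3 ± 3.16 CPM.

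Other lectin-like genes of the NK gene complex were mostly too low to test. Of 7 listed, 2 could be tested, and 1 of these, *Klri2*, was called in both comparisons with *Ptgs*-/- tumors of NK cell-competent mice. It was higher in these tumors (log2 1.58, SE 0.33, FDR = 0.00617 and 2.68, SE 0.41, FDR = 0.00599), as 3.14% and 0.323% of all genes were. The product of *Klri2* pairs with KLRE1. Its group means were 1.25 ± 0.418 CPM (SD, n = 4) with COX, 3.92 ± 1.46 (SD, n = 3) without it and 0.595 ± 0.0877 (SD, n = 3) after depletion. *Klrb1a*, too low to test, had 8, 13 and 22 counts in the *Ptgs*-/- tumors of NK cell-competent mice and overlapped with neither other group (means 0.278 and 0.477 CPM, against 1.44). *Klrb1b*, an inhibitory relative of NK1.1, was not called in any comparison (4.79 ± 1.40, 6.81 ± 1.45 and 3.18 ± 0.469 CPM). *Klrc3*, a close relative of *Klrc1* and *Klrc2*, had at most 2 counts in a library, and *Klri1* at most 4.

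Across the 10 tumors the receptor genes varied together. Pearson correlations of log2(CPM + 1) between pairs of the 9 genes ran from 0.364 to 0.984 with a median of 0.867 over 36 pairs, and after the group means were removed from -0.00780 to 0.915 with a median of 0.467 (10 tumors, sharing the same libraries and group differences). The highest pair was *Klrb1c* and *Klrc2* and the lowest *Klrc1* and *Klrg1* before the group means were removed, and *Ncr1* and *Klrc1* and *Klre1* and *Klrg1*, respectively, after. Of 14501 genes compared with the mean profile of the 9, the 10 most alike were *Klra7* (r = 0.991), *Samd3* (0.990), *Nkg7* (0.989), *Klra8*, *Il2rb*, *Serpinb6b*, *Eomes*, *Klra13-ps*, *Txk* and *Klra9* (0.966). Of these 10, 4 belong to the Ly49 (*Klra*) family and another 4 to the list of NK cell markers, of which 11 genes were tested. By Spearman correlation 7 were also among the 10 highest. Group means were not removed here, so a gene that follows the differences between the groups scores high.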

How the data were processed

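RNA of 10 bulk tumors was sequenced from QuantSeq 3′ libraries. The authors removed the first 12 bases and contaminants from the reads, used STAR for alignment to GRCm38, counted them on the Ensembl version 86 annotation with featureCounts and deposited raw counts per gene, with no normalization and no pooling. Strand and multi-mapping settings and the read length are not given in the sources used here. Samples were grouped by the submitters' labels.

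Here edgeR 4.0.16 (R 4.3.3) was run on these counts: 14550 genes passed filterByExpr, TMM gave the scaling, and a single quasi-likelihood model over the 10 libraries yielded the 3 comparisons, with p adjusted by Benjamini-Hochberg over all genes tested. The standard error is the fold change divided by the root of F. CPM are scaled by the library total. Total counts of 8150556 to 12839174 give floors of 0.234 to 0.368 CPM for 3 counts. For shares, 27 exact permutation tests (two-sided, scipy 1.17.1) were run. Replicates differed by 7.41 to 30.1 in chi-square per degree of freedom, so all were kept as separate samples.

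Coordinates are GENCODE release M21 on GRCm38, and promoters are RefSeq's. The alternatives were DESeq2 1.42.0, library size alone, other filters, the likelihood ratio test, FDR alone, the label code as a term or 1 code alone, a fit of the compared groups alone, a block for the label number, leaving out each library and, for shares, a denominator without *Klrg1*. Named are the 9 genes, list genes that are direct partners or ligands of them or were called, and the 10 genes with the highest correlation. The receptor genes and all lists were chosen with earlier results of these data known. *Klrh1*, *Raet1a*, *Raet1b* and *Raet1c* were not analysed here.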

Additional observations from a re-analysis of the deposited data

How the results depend on the processing

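Between *Ptgs*-/- and *Ptgs*+/+ tumors the number of receptor genes called was 8 under all alternatives that kept every library or 1 label code, and 7 to 8 with 1 library left out. Between NK cell-competent and depleted mice it was 5 with label code EB046 alone, 7 with library size alone or the label code as a term, and 6 to 8 with 1 library left out. Between depleted *Ptgs*-/- and *Ptgs*+/+ tumors it was 3 with only these groups and 2 to 4 with 1 library left out. EB046 alone holds 2 fewer tumors, and the cause of the other changes was not tested. Of 171, 171 and 168 gene-level refits in the 3 comparisons, 5, 17 and 4 lost the call, none gained one, and 1 changed sign: *Klrb1f* in depleted *Ptgs*-/- against *Ptgs*+/+ tumors ranged from -0.036 to 0.94 with 1 library left out. Deviations from the group means correlated from -0.30 to 0.39 between same-numbered libraries and from -0.47 to 0.19 between the others. With so few libraries in a group, these values cannot decide whether the numbers pair the tumors. With the label number as a replicate block, 8, 7 and 4 genes were called in the 3 comparisons.

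For shares, leaving out 1 library turned the sign of small differences, none of which was past the threshold. Between *Ptgs*-/- and *Ptgs*+/+ tumors the difference ranged from -1.09 to 2.11 percentage points for *Klrc1*, from -2.04 to 0.0651 for *Klrk1* and from -0.931 to 1.17 for *Klrg1*. Between NK cell-competent and depleted mice that of *Klrb1f* ranged from -0.984 to 0.696, and it was -1.39 with *Klrg1* left out of the denominator. Between depleted *Ptgs*-/- and *Ptgs*+/+ tumors *Klrd1* ranged from -2.99 to 6.80 and *Klre1* from -1.98 to 0.515.
Low counts set the limits: in depleted tumors *Klre1* and *Klrb1f* had at most 7 counts, and a share rests on 100 to 165 counts.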

Other observations

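Markers of other cells that can carry some of these receptors were also read. ILC1, innate lymphoid cells other than NK cells, also express NKp46 and NK1.1. Of 3 ILC1 markers tested, 1, *Cxcr6*, was higher in *Ptgs*-/- than in *Ptgs*+/+ tumors by the rule (log2 1.69, SE 0.33, FDR = 0.00378), where 3.14% of all genes were. The levels of *Cxcr6* were 5.24 ± 1.93 CPM (SD, n = 3) and 1.57 ± 0.568 (SD, n = 4). It stood at 4.08 ± 0.342 CPM (SD, n = 3) after depletion, above *Ptgs*+/+ tumors by the FDR but not the fold (log2 1.35, SE 0.33, FDR = 0.0209). *Itga1* and *Tnfsf10* were not called in any comparison, and *Zfp683* had a single count in 1 library. *Cxcr6* is also carried by T cells. Of 5 γδ T cell markers 2 could be tested, and neither was called in any comparison, where 4.15%, 1.15% and 2.71% of all genes were in the 3 comparisons. With so few genes, the lack of a call says little. *Trdc* was at 1.89 ± 0.372, 2.85 ± 2.15 and 0.777 ± 0.462 CPM in *Ptgs*+/+, *Ptgs*-/- and depleted *Ptgs*-/- tumors. *Sox13* was at 12.7 ± 2.33, 14.3 ± 1.46 and 19.8 ± 2.74 CPM in the same order and passed the FDR but not the fold between depleted *Ptgs*-/- and *Ptgs*+/+ tumors (log2 0.61, SE 0.17, FDR = 0.0384). *Tcrg-C4*, too low to test, was at 0.111 ± 0.111, 0.992 ± 0.172 and 0.128 ± 0.140 CPM, with the *Ptgs*-/- tumors of NK cell-competent mice above both other groups, and *Tcrg-C1* and *Tcrg-C2* had at most 6 counts in a library.

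Mast cell and basophil genes differed widely among the *Ptgs*-/- tumors of NK cell-competent mice. The summed level of 6 of them was 64.4 to 97.0 CPM in *Ptgs*+/+ tumors, 28.5 to 171 in *Ptgs*-/- tumors and 118 to 180 after depletion. None of the 4 tested was called, where 4.15%, 1.15% and 2.71% of all genes were in the 3 comparisons. *Cma1*, a mast cell chymase, had 16.2, 99.1 and 47.0 CPM in the 3 *Ptgs*-/- tumors of NK cell-competent mice. *Il1rl1* encodes the IL-33 receptor, which ILC2 and mast cells carry. It was lower in *Ptgs*-/- than in *Ptgs*+/+ tumors (log2 -2.32, SE 0.25, FDR = 0.000158), at 114 ± 50.1 against 545 ± 81.0 CPM. After depletion it stood at 121 ± 9.14 CPM, again below *Ptgs*+/+ tumors (log2 -2.21, SE 0.25, FDR = 0.000201). Which cells of the tumor held this transcript was not tested.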
